A study of Mus musculus with 6 samples.

Results

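The mRNA levels of 10 genes of the pericentral hepatocyte and of the Wnt pathway were examined in the livers of mice with nonalcoholic steatohepatitis. The genes are Glul, Slc1a2, Rhbg, Oat, Cyp2e1, Cyp1a2, Axin2, Lgr5, Tbx3 and Lect2. They were chosen by their symbols, with earlier results of these data known. They are 10 of the 17460 gene symbols in the table, and all 10 were among the 17297 genes tested. RNA sequencing was performed on whole liver from 3 control and 3 Blnc1 liver-specific knockout (LKO) mice, to learn which genes of the diseased liver respond to loss of this long noncoding RNA. All 6 mice were C57BL/6, were 9 months old and had been fed the NASH diet, which contains fructose, trans fats and cholesterol, for 24 weeks. The LKO mice carried a transgene for constitutive Cas9 and received, by tail vein, an adenovirus that expresses a pair of single-guide RNAs against Blnc1. The labels give the genotype of the other mice only as control, and the table heads their columns WT. Whether they carried Cas9 and which virus they received is not given for this cohort in the sources used here. For its high-fat diet cohort, the paper describes the controls as Cas9 transgenic mice given a GFP adenovirus. Adenovirus reaches hepatocytes more readily than the other liver cells, so the deletion is a model of loss in hepatocytes in particular.

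Hepatocytes differ in their gene programs along the line from the portal to the central vein, which is called zonation. Endothelial cells around the central vein secrete Wnt2, Wnt9b and R-spondin 3, and the hepatocytes next to them respond through beta-catenin and its DNA-binding partners of the TCF/LEF family. These pericentral hepatocytes make glutamine from ammonium and hold much of the drug-metabolizing P450 of the liver, while periportal hepatocytes run urea synthesis and gluconeogenesis.

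Each liver gave 65384969 to 89350181 reads in genes. Blnc1 has no row under that symbol, so its loss was not measured. A gene that lists Blnc1 among its RefSeq synonyms, Paqr9, ranged from 15156 to 20027 over the 6 livers and its groups overlapped. The paper treats Paqr9 as a separate gene next to Blnc1, with mRNA that the guide RNAs did not affect. Its level is therefore no measure of Blnc1. For its liver-specific knockout the paper reports lower Blnc1 in liver and in isolated hepatocytes. The hepatocyte markers Alb and Hnf4a were at 3780898 or above and at 30275 or above in every liver. The 3 livers of a group differed from each other far more than counting alone gives. The chi-square per degree of freedom was 20.8 to 32.3 between control livers and 43.8 to 70.0 between Blnc1 LKO livers. No label names a shared cage or litter. The p-values set the difference between the groups against the spread between livers within them, which limma moderates over all genes.

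Levels are given as normalized read counts, that is, reads scaled by the size factor of their library. Gene positions are those of GENCODE M21 on GRCm38, and all 10 genes are protein-coding. Per kilobase of merged exons, the control means of the 10 genes spanned from 225701 ± 11962 for Cyp2e1 to 45.1 ± 6.1 for Lgr5 (SD, n = 3). The order between them was Glul at 33374 ± 1820, Oat at 24834 ± 2832, Lect2 at 13397 ± 1488, Cyp1a2 at 5892 ± 802, Slc1a2 at 1033 ± 88.1, Rhbg at 513 ± 33, Tbx3 at 281 ± 44.9 and Axin2 at 99.98 ± 10.9 per kilobase. The enzymes and the secreted protein thus stood above the transporters, and the transcription factor, the feedback inhibitor and the receptor stood lowest. No neighbours in this order overlapped among the control livers. Among the Blnc1 LKO livers, Glul overlapped with Oat and Lect2 overlapped with Cyp1a2. The order within a liver was the same in all 6 livers.

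**Figure D1:**
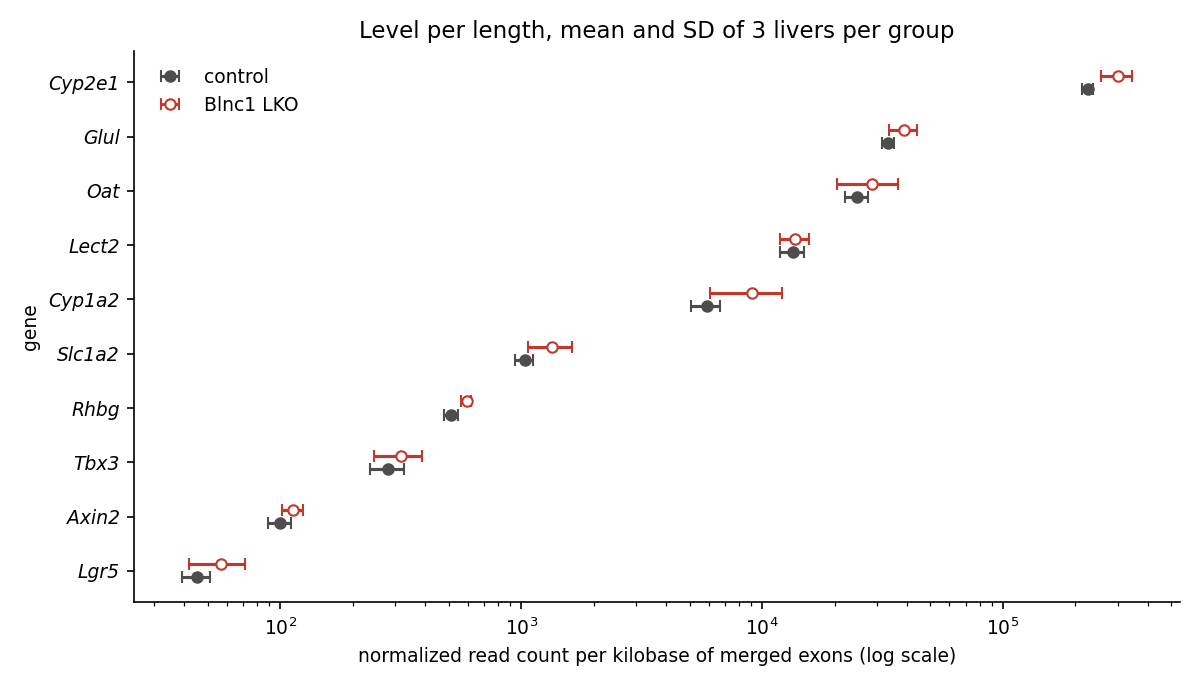
Normalized read count per kilobase of merged exons (log axis) for the 10 genes, with points for the mean and bars for the SD of 3 livers in each group. Cyp2e1 stands highest, with a control mean of 225701, and Lgr5 lowest, at 45.1.

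The promoters of the genes are shown because TCF/LEF factors bind a short motif, and the 10 genes are commonly listed as depending on Wnt signals. The RefSeq table on GRCm38.p6 gave a window of 300 bases, from 250 before to 50 after the start, for 7 of the 10 genes. The letters CTTTGAA and CTTTGAT were searched on both strands, where they read TTCAAAG and ATCAAAG. Of the 7 windows 4 held a match, which is 57.1%, against 8.65% of 32851 windows of the same length. Counted by gene, 9.88% of 27025 genes held a match in any of their windows. Glul, Oat and Axin2 held none. Such a match is a description of the letters, not a binding site. The parts of the 4 windows that lie before the annotated exons follow 5′ to 3′ on the strand of the gene, with the match in capitals.
Cyp2e1: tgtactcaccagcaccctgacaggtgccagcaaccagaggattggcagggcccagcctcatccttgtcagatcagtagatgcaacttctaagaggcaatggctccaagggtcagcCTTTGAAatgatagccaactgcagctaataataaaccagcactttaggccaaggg
Cyp1a2: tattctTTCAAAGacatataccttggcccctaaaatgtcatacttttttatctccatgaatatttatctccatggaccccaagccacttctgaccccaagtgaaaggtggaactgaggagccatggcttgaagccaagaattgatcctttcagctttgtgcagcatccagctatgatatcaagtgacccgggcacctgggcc
Slc1a2: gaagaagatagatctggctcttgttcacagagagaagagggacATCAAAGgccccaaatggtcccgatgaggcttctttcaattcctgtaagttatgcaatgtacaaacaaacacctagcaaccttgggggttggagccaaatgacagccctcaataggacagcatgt
Lect2: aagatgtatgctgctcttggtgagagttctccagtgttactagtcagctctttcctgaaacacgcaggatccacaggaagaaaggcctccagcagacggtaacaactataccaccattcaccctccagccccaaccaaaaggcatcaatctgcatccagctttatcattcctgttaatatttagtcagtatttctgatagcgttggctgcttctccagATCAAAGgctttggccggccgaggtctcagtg
The Cyp2e1 stretch lies at chr7:140763569-140763738 on the + strand, and its match starts 135 bases before the RefSeq start. The Cyp1a2 stretch lies at chr9:57683704-57683905 on the - strand, with the match 244 bases before the start. The Slc1a2 stretch, chr2:102706188-102706355 on the + strand, is inside the gene as GENCODE draws it but outside its exons, and its match starts 207 bases before the RefSeq start. The Lect2 stretch, chr13:56548539-56548788 on the - strand, has its match 32 bases before the start. Lgr5, Tbx3 and Rhbg had no entry.

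No gene of the 10 passed the test for a difference between Blnc1 LKO and control, which was limma on log2(value + 1) with p-values adjusted by Benjamini-Hochberg over all genes tested. Over all the genes 0.00578% of genes passed it. At an unadjusted p under 0.05, 4 of the 10 had a higher mean in Blnc1 LKO, namely Cyp2e1, Cyp1a2, Rhbg and Slc1a2, where 2.94% of all genes did, and 0 of the 10 had a lower mean, where 2.74% of all genes did. All 3 Blnc1 LKO livers stood above all 3 control livers for 3 of the 10, Cyp2e1, Cyp1a2 and Rhbg, beside 5.35% of all genes. For 0 of the 10 did they all stand below, beside 5.28% of all genes. DESeq2 on the recovered reads called 1 of the 10, Cyp2e1, beside 0.288% of genes called higher. Each of the 10 fold changes was above 0, as 49.6% of all genes were, and their median was 0.21 on the log2 scale, against -0.001 over all genes.

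**Figure D2:**
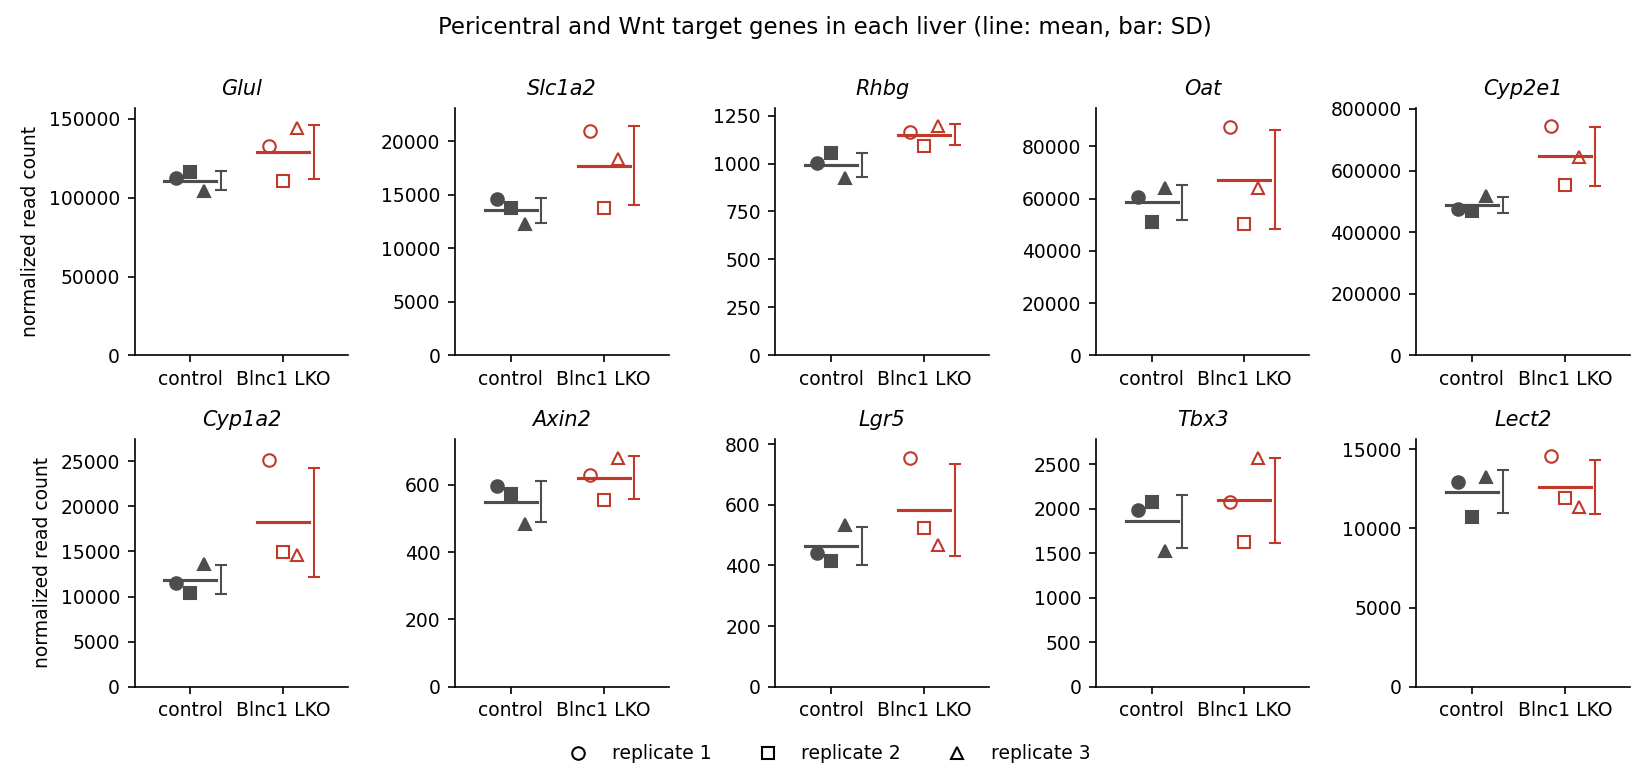
Normalized read count of the 10 genes in each of 6 livers, filled symbols for control and open symbols for Blnc1 LKO, with the replicate number as the shape, a line at the mean and a bar for the SD. Blnc1 LKO liver 1 is the highest of 6 for 6 genes and Blnc1 LKO liver 3 for the other 4.

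Ammonium and glutamate handling is the best known task of these hepatocytes. Glul, glutamine synthetase (chr1:153899944-153909723, + strand), which joins ammonium to glutamate, had normalized read counts of 112296, 116131 and 104276 in control livers 1 to 3 versus 132889, 110589.5 and 143951 in Blnc1 LKO livers 1 to 3. Blnc1 LKO livers 1 and 3 were above every control liver, and liver 2 lay within the control range. The means were 110901 ± 6049 and 129143 ± 16993 (SD, n = 3 each), and the log2 fold change was 0.21 (SE 0.11, limma adjusted p = 0.922). Of the 50-base words of the Glul transcripts 11.9% also occur in transcripts of other genes, Glns-ps1 among them. Slc1a2 (chr2:102658659-102790784, + strand), the glutamate transporter GLT-1, which brings glutamate into the cell, had 14601, 13788 and 12318 in the controls versus 21020.2, 13744 and 18380.4 with the knockout. The same pair of Blnc1 LKO livers was high and the groups overlapped through liver 2. Its mean was 1.31 times the control mean, with a log2 fold change of 0.37 (SE 0.14, limma adjusted p = 0.843).

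Rhbg (chr3:88242874-88254709, - strand), an ammonium transporter of the Rhesus family, had the smallest SE of the 10. Its counts were 1000.4, 1053 and 926 in the controls versus 1165, 1089 and 1195 with the knockout. The groups did not overlap, and the lowest Blnc1 LKO liver exceeded the highest control liver by only a little. The log2 fold change was 0.21 (SE 0.07, 95% interval 0.04 to 0.38, limma adjusted p = 0.824). Of the 50-base words of its transcripts 60.4% also occur in Gm38392, an overlapping gene model on the same strand, so the count of Rhbg is uncertain. Oat (chr7:132557478-132576398, - strand), ornithine aminotransferase, which forms glutamate from ornithine, had 60539, 51171 and 64113 in the controls versus 87538, 50190.2 and 64249 with the knockout. Liver 1 stood far above the rest, liver 2 below every control liver, and liver 3 beside the highest control. The log2 fold change was 0.17 (SE 0.18, limma adjusted p = 0.973), and without Blnc1 LKO liver 1 it was -0.04.

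The P450 genes had the largest fold changes of the 10. Cyp2e1 (chr7:140763739-140774987, + strand), which oxidizes ethanol, acetone and paracetamol, had 474764, 469699.8 and 516727 in the controls versus 744646, 552886 and 643155 with the knockout. Every Blnc1 LKO liver was above every control liver, with liver 1 highest and liver 2 nearest to control. The transcript took 0.635 to 0.691% of all reads in control livers and 0.774 to 0.957% in Blnc1 LKO livers. The mean was 1.33 times the control mean, a log2 fold change of 0.40 (SE 0.16, 95% interval 0.03 to 0.77, limma adjusted p = 0.851). DESeq2 gave an adjusted p of 0.0324, the lowest of its 14 alternatives, whose adjusted p reached 1.00 at the other end. Cyp1a2 (chr9:57676937-57683703, - strand), which metabolizes caffeine and is a target of the aryl hydrocarbon receptor, had 11541, 10431 and 13610.4 in the controls versus 25201, 14904 and 14585 with the knockout. Liver 1 alone was far above the others, and livers 2 and 3 were just over the highest control. The log2 fold change was 0.58 (SE 0.20, 95% interval 0.13 to 1.03, limma adjusted p = 0.824), and it was 0.32 without Blnc1 LKO liver 1.

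Among the regulators of the pathway, Axin2 (chr11:108920349-108950783, + strand), a scaffold of the beta-catenin destruction complex and a feedback target of Wnt signals, had 596, 573 and 483 in the controls versus 631, 554 and 680.1 with the knockout. Livers 1 and 3 were above every control and liver 2 within the control range. The log2 fold change was 0.18 (SE 0.11, limma adjusted p = 0.951), and it was 0.084 without control liver 3. Lgr5 (chr10:115450311-115587780, - strand), a receptor for R-spondins, had 441, 414 and 534 in the controls versus 753, 524 and 466 with the knockout. Here liver 1 alone stood above the control range. Its log2 fold change was 0.31 (SE 0.18, limma adjusted p = 0.934), and 0.10 on the same log2 scale when Blnc1 LKO liver 1 was left out. Tbx3 (chr5:119670669-119684724, + strand), a T-box transcription factor, had 1983, 2076 and 1521 in the controls versus 2071, 1630.1 and 2574 with the knockout. Liver 3 alone stood above the control range, and the log2 fold change was 0.16 (SE 0.17, limma adjusted p = 0.973). It was -0.0047 without Blnc1 LKO liver 3, 0.019 without control liver 3 and 0.32 without Blnc1 LKO liver 2.

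Lect2 (chr13:56542464-56548502, - strand), a protein that hepatocytes secrete, gave 12909, 10748 and 13278 in the controls versus 14587, 11925 and 11360.4 with the knockout. The groups overlapped, and the means of 12312 ± 1367 and 12624 ± 1723 differed by less than either SD. The log2 fold change was 0.03 (SE 0.11, 95% interval -0.22 to 0.29, limma adjusted p = 0.994), so a change of more than 0.29 on the log2 scale in either direction lies outside the interval.

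**Figure D3:**
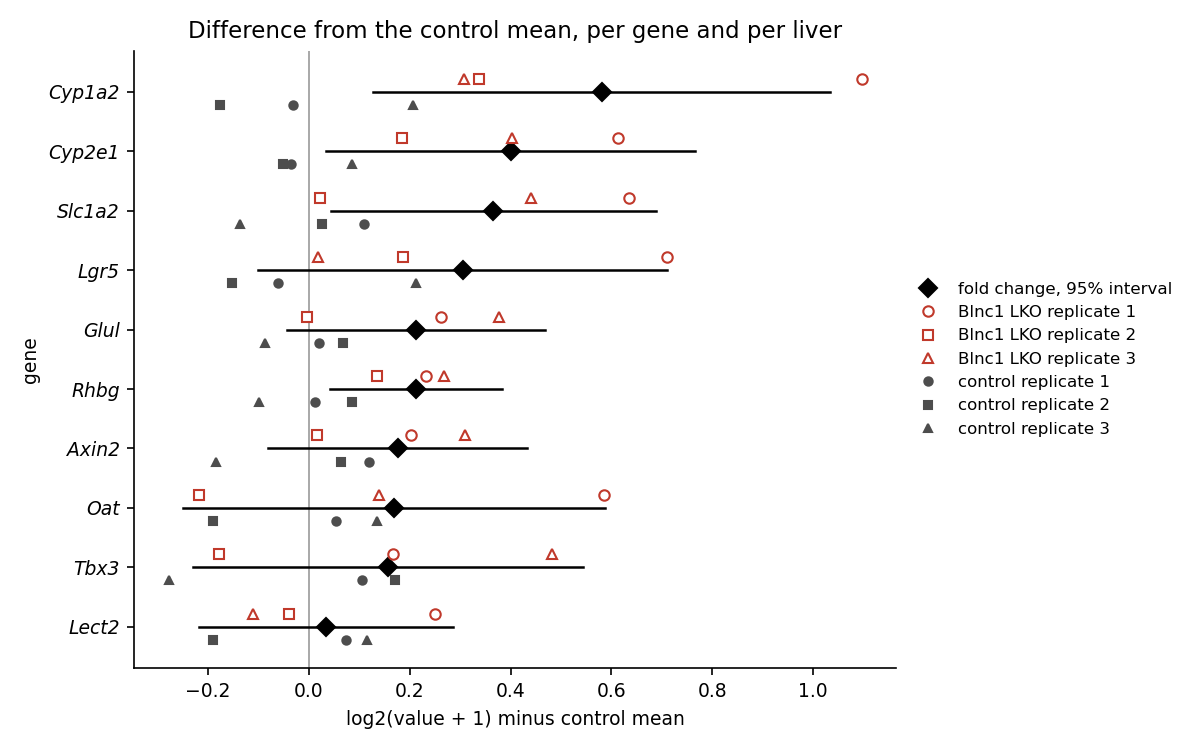
Difference of each liver from the control mean on the log2(value + 1) scale for the 10 genes, with a diamond for the fold change and a bar for its 95% interval from limma. The intervals of Cyp1a2, Cyp2e1, Slc1a2 and Rhbg lie above 0 and the other 6 include 0.

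The Blnc1 LKO livers were unlike each other for these genes, and by the chi-square above they also differed more than the control livers over all genes. Liver 1 was above every control liver for 9 of the 10, with a median of 0.42 over the control mean on the log2 scale. Liver 3 was above every control liver for 8 of the 10, with a median of 0.31. Liver 2 was above every control liver for 3 of the 10, within the control range for 6 and below it for 1, with a median of 0.02. The share of all genes above every control liver in a single Blnc1 LKO liver was not counted, so these counts have no background beside them. Liver 1 held the highest value of all 6 livers for Cyp2e1, Cyp1a2, Oat, Lgr5, Slc1a2 and Lect2, and liver 3 for Glul, Axin2, Tbx3 and Rhbg. Liver 3 minus liver 1 was 0.31 on the log2 scale for Tbx3 and 0.11 for Axin2, but -0.79 for Cyp1a2 and -0.69 for Lgr5. Liver 2 was the highest for none. With liver 2 left out, 6 of the 10 had an unadjusted limma p under 0.05. Without control liver 2 or control liver 3 the count was 1, without Blnc1 LKO liver 1 or liver 3 it was 2, and without control liver 1 it was 3. The share of all genes at that p was not counted with a liver left out. Adjusted limma calls over all genes moved too. They were 13 without Blnc1 LKO liver 2, 0 to 2 with any other liver left out, and 1 with all 6 livers.

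Of 14 other genes known for higher mRNA around the central vein, 11 had a higher mean in Blnc1 LKO and 3 a lower one. Their median log2 fold change was 0.17. At an unadjusted limma p under 0.05, 3 of the 14 were higher, beside 2.94% of all genes, and 0 were lower, beside 2.74%. Avpr1a, the vasopressin receptor of hepatocytes, had 377, 380.3 and 318 in the controls versus 705, 474 and 414 with the knockout, without overlap (log2 fold change 0.53, SE 0.19, limma adjusted p = 0.824). Cyp2c50 and Cyp2a5, P450 enzymes, had log2 fold changes of 0.76 and 0.59 with groups that overlapped. Outside the P450 genes of the list, 7 of 9 were higher and the median was 0.15. By liver, the median of the 14 genes relative to the control mean was 0.44, 0.02 and 0.18 in Blnc1 LKO livers 1 to 3, and -0.09 to 0.14 in control livers.

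Of 16 periportal genes tested, 5 had a higher mean in Blnc1 LKO and 11 a lower one, and the median log2 fold change was -0.16. At an unadjusted limma p under 0.05, 1 of the 16 was lower, beside 2.74% of all genes. It was the aldehyde dehydrogenase Aldh1b1 (log2 fold change -0.43, limma adjusted p = 0.859). Sds, serine dehydratase, and Gls2, the liver glutaminase, had log2 fold changes of -0.35 and -0.31. Ass1, a urea cycle enzyme used as a periportal marker, was at 4.76 to 12.1 in the 6 livers, far under the other genes of the list. So low a level is unusual for this gene in liver, and its counting was not checked here. Without it 5 of 15 were higher and 10 lower, and the median log2 fold change was -0.15. The median of the 16 genes was -0.03, -0.31 and -0.11 in Blnc1 LKO livers 1 to 3 and -0.12 to 0.15 in control livers. Within each liver, the median of the 10 pericentral genes minus that of the periportal genes was 0.46, 0.32 and 0.42 in Blnc1 LKO livers and 0.05, 0.11 and -0.15 in control livers. This difference was computed after the values were seen and is given with no test. Liver 2 stood with livers 1 and 3 on it, since its periportal median was the lowest of the 6 livers.

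**Figure D4:**
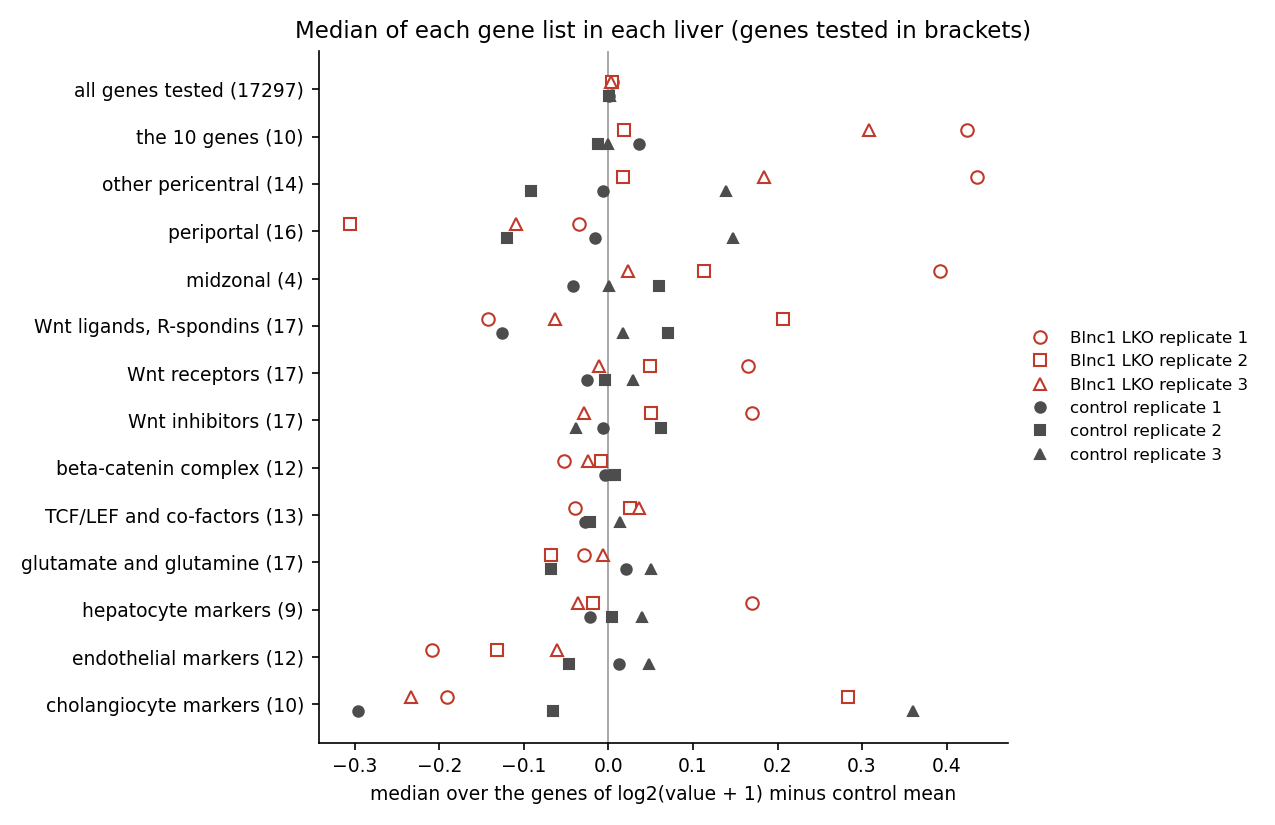
Median over each gene list of log2(value + 1) minus the control mean, 1 point per liver, with the number of genes tested in brackets. The 10 genes sit at 0.42, 0.02 and 0.31 in Blnc1 LKO livers 1 to 3, while the periportal genes sit at -0.03, -0.31 and -0.11.

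The 4 midzonal genes tested included the only gene past the adjusted threshold, Hamp, which encodes the iron hormone hepcidin. It had 14250.0, 14791 and 13198 in the controls versus 24524, 23412 and 24545 with the knockout (log2 fold change 0.78, SE 0.06, limma adjusted p = 0.0123). It rose to near the same level in all 3 Blnc1 LKO livers. Igfbp2, an insulin-like growth factor binding protein, had a log2 fold change of 0.24, and Hamp2, another hepcidin gene, had -0.67 with a limma adjusted p of 0.973.

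Of the Wnt ligands, R-spondins and secretion factors, 17 of 25 were listed, and 10 were higher and 7 lower. At an unadjusted limma p under 0.05, 1 of the 17 was higher, beside 2.94% of all genes. That gene was Wnt9a, at 78.3, 75.6 and 73.5 in the controls versus 118, 114 and 102 with the knockout, without overlap (log2 fold change 0.54, SE 0.15, limma adjusted p = 0.684). Of the ligands of the central vein, Wnt2 had a log2 fold change of 0.14 (SE 0.14), Wnt9b 0.17 (SE 0.17) and Rspo3 0.07 (SE 0.07), each with a limma adjusted p of 0.973. Of 17 receptors 13 were higher and 4 lower, with 0 at an unadjusted p under 0.05, and Fzd8, a Frizzled receptor, had the smallest p (log2 fold change 0.27, limma adjusted p = 0.891). Of 12 genes for beta-catenin, its destruction complex and Dishevelled, 4 were higher and 8 lower, with 0 at that p and a range of -0.12 to 0.11. Ctnnb1, beta-catenin itself, had a log2 fold change of -0.04 (SE 0.05). Of 13 TCF/LEF factors and co-factors 6 were higher and 7 lower, again with 0 at that p. Tcf7, the factor of smallest p, had 0.12 on the log2 scale.

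Inhibitors of the pathway keep Wnt signals in check, and several are Wnt targets. Of 17 tested, 12 were higher and 5 lower, with 3 and 1 at an unadjusted limma p under 0.05. At that p 2.94% of all genes were higher and 2.74% lower. DESeq2 called 1 of the 17 higher after adjustment, beside 0.288% of genes called higher. Dkk4, a secreted antagonist of the Wnt co-receptor and itself a known Wnt target, had 14.0, 14.9 and 13.8 in the controls versus 85.7, 16.9 and 68.5 with the knockout. Livers 1 and 3 were several times the control level and liver 2 just above it. Liver 2 was the lowest Blnc1 LKO liver for 7 of the 10 genes too. Its log2 fold change was 1.64 (SE 0.53, limma adjusted p = 0.791). Wif1, which binds Wnt proteins, had 4.66, 16.0 and 10.7 in the controls versus 47.6, 18.8 and 34.3 with the knockout (log2 fold change 1.64, SE 0.48, limma adjusted p = 0.714). Notum, an enzyme that inactivates Wnt proteins and is a pericentral Wnt target, had 1668, 1468 and 1289 in the controls versus 1817, 1800.2 and 1814 with the knockout. Its Blnc1 LKO livers lay close together and above every control (log2 fold change 0.30, SE 0.09, limma adjusted p = 0.737). Frzb, a soluble Wnt binding protein, had a log2 fold change of -0.31 (limma adjusted p = 0.848) and was added after its value was seen. Of 10 other widely used Wnt targets, Notum included, 7 were higher and 3 lower, and Nkd1, another feedback inhibitor, had 0.21 (limma adjusted p = 0.891).

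Relatives of the 10 genes did not follow a single direction. Of 14 paralogs tested 5 were higher and 9 lower. Cyp1a1, the closest relative of Cyp1a2, had 62.5, 61.8 and 52.2 in the controls versus 96.4, 81.7 and 76.0 with the knockout (log2 fold change 0.52, SE 0.18, limma adjusted p = 0.824), with 4.79% of the words of Cyp1a2 shared between them. Of 7 genes of the aryl hydrocarbon receptor and its targets, Cyp1a1 included, 2 were higher and 5 lower. Slc1a4, a neutral amino acid transporter of the Slc1a2 family, had 1172, 1289 and 1351 in the controls versus 989, 1072 and 932 with the knockout, all below control (log2 fold change -0.35, SE 0.08, limma adjusted p = 0.548). Of 17 other enzymes and transporters of glutamate and glutamine 4 were higher and 13 lower. Gpt2, an alanine aminotransferase, had 70608, 65811 and 72336 in the controls versus 60610.2, 60314 and 58355 with the knockout (log2 fold change -0.22, SE 0.07, limma adjusted p = 0.787).

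Markers of the cell types in whole liver were counted beside these values. Of 9 hepatocyte markers tested without regard to zone 7 were higher and 2 lower, the median log2 fold change was 0.03, and by liver it was 0.17, -0.02 and -0.04 in Blnc1 LKO livers 1 to 3. Their summed level was 5996024 to 6484462 in control and 5857837 to 6997457 in Blnc1 LKO livers. The liver with the highest hepatocyte median was thus liver 1, as for the 10 genes. Of 12 endothelial markers 10 were lower, 5 of them at an unadjusted limma p under 0.05, and the sum was 44115 to 46748 in control and 40736 to 43464 in Blnc1 LKO livers. Pecam1 and Lyve1 had log2 fold changes of -0.17 and -0.57. Of 10 stellate cell markers 8 were lower, 5 at that p, with Col1a1 at -0.61, and the sum was 111343 to 122883 in control and 93069 to 110931 in Blnc1 LKO livers. Of 10 cholangiocyte markers 2 were higher and 8 lower, of 10 macrophage markers 6 were higher, 4 of them at that p, and 4 lower, 2 of them at that p, of 10 lymphocyte markers 4 were higher and 6 lower, and all 8 proliferation markers were lower. At an unadjusted limma p under 0.05, 2.94% of all genes were higher and 2.74% lower. DESeq2 called 4 of the 10 stellate cell markers lower after adjustment, beside 39 of the 15617 genes to which it gave an adjusted p. No marker of these lists was at 0 in any liver. In whole liver, fewer cells of a type and less RNA per cell cannot be told apart, and the part of cell composition in the values of the 10 genes was not tested.

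The genes most like the 10 in their pattern were sought among 12478 genes with a mean of at least 100, by the root mean square difference from the mean centred log2 profile of the 10 over the 6 livers. The nearest were Gm16548 at 0.03, C8g at 0.03, Abcb11 at 0.04, Cyp4v3 at 0.04 and Mcm10 at 0.05. Abcb11, the bile salt export pump, had 23648, 21855 and 22613 in the controls versus 31831, 23328 and 25652 with the knockout. C8g is a chain of complement component C8, and Cyp4v3 is a fatty acid hydroxylase. Each of the 5 was highest in Blnc1 LKO liver 1 and next highest in liver 3, which is the order of the profile that they were picked to match.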

How the data were processed

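Liver RNA of 3 control and 3 Blnc1 LKO mice was sequenced after polyA selection. According to the submitters' notes FastQC, STAR, HTSeq and DESeq2 were used with mm10. Versions, gene annotation and strand setting are not given in the sources used here. The signal deposited by the authors is the read number of each gene after size-factor scaling. Whole reads were recovered from it for 100% of values within a tolerance of 0.01. The columns, headed WT and KO with a number, were matched to the control and LKO samples of that number.

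The plan named edgeR for raw counts. As the values are normalized, limma (version 3.58.1, R 4.3.3) modelled log2(value + 1) with a trend and no covariates. Genes entered if 3 or more livers had a value of 1 or more. p-values were adjusted by Benjamini-Hochberg at 0.05. A 3 against 3 exact permutation test cannot go below 0.1 and was not used. edgeR (version 4.0.16) and DESeq2 (version 1.42.0) on recovered reads were alternatives, with a pseudocount of 0.1, other filters and scalings, the replicate block and each liver left out. DESeq2 gave an adjusted p for 15617 genes.

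The 10 genes and the lists were chosen with earlier results of these data known. Named genes are the 10, up to 3 genes of smallest p per list with a mean of at least 10, and the 5 nearest in pattern. Others were chosen after their values were seen, as were Wnt2, Wnt9b, Rspo3, Ctnnb1, Alb, Hnf4a and Ass1, which are named for their role. Scripts were tested on simulated data. Gene positions and exon lengths are from GENCODE M21 on GRCm38, and promoters from RefSeq.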

Additional observations from a re-analysis of the deposited data

How the results depend on the processing

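Of 140 values of the 10 genes under the alternatives, 135 kept their direction and side of the threshold. The Cyp2e1 call passed it with DESeq2 (adjusted p = 0.0324). Without Blnc1 LKO replicate 1 the log2 fold change reversed for Oat (-0.039) and Lect2 (-0.075), without control replicate 2 for Lect2 (-0.06), and without Blnc1 LKO replicate 3 for Tbx3 (-0.0047), in each case from fewer samples. Leaving out 1 liver gave -0.039 to 0.36 for Oat, -0.075 to 0.11 for Lect2, 0.13 to 0.32 for Glul, 0.29 to 0.51 for Cyp2e1, 0.32 to 0.72 for Cyp1a2, 0.23 to 0.54 for Slc1a2, 0.16 to 0.26 for Rhbg, 0.084 to 0.26 for Axin2, 0.10 to 0.45 for Lgr5 and -0.0047 to 0.32 for Tbx3. The periportal median without Ass1 was chosen after seeing the data.

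Over all genes limma called 1, against 84 with DESeq2 and 2 each with edgeR, with log2(CPM + 1) and with no filter; the cause was not tested. Leaving out 1 liver gave 0 to 13 calls, with 13 without Blnc1 LKO replicate 2. Of the 10 genes, 4 had an unadjusted p under 0.05 and a higher mean, 5 with DESeq2 and with library size alone, and 3 with log2(CPM + 1), with 1 to 6 over the livers left out. With the replicate block, limma called 0 genes and 3 of the 10 had p under 0.05. The share of all genes higher at that p, 2.94%, was counted for the main fit only, so the counts under the alternatives have no background beside them. Deviations of same-numbered livers correlated at -0.06, 0.0047 and -0.18, and those of livers with different numbers at -0.13 to 0.18. With 3 livers per group, this cannot tell whether the numbers pair the mice.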
